A study of Mus musculus with 2 samples.

Results

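The genes described here encode histone variants, a core H2A histone and linker histones: H1f2, H2aw, H2ax, H2az1, H3f3a, H3f3b and H1f0. They were taken as all probe sets whose platform annotation names exactly 1 of these symbols. The rule found 10 probe sets for 6 of the 7 genes, of 45037 non-control probe sets and 18194 named genes in all, and H1f0, the linker histone of arrested and differentiating cells, was not analysed here. The genes were chosen by the differences in signal that these same arrays showed, so the ratios below are a description and are not tested. Expression was measured in mouse E14 embryonic stem cells, an established cell line, on 1 Affymetrix 3' expression array for cells with a lentiviral short hairpin RNA (shRNA) directed at Mll2 (Mll2 shRNA cells) and 1 for cells with a lentiviral control shRNA (control cells). The protocol gives 24 h of infection and then 5 days of puromycin selection, so the control cells also carry a virus and are not untreated wild-type cells. No replicate array was used in either group, so a difference between the arrays has no replicate check, and cells with another hairpin were not analysed here.

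Histones package DNA into nucleosomes, and linker histones bind the DNA where it enters and leaves them. Most core histone genes and H1f2 are replication-dependent: they are transcribed in S phase into mRNAs that end in a stem-loop and mostly lack a poly(A) tail, which the labelling kit used here primes from. Replication-independent variants, among them H3.3 (H3f3a and H3f3b) and H2A.Z (H2az1), have polyadenylated mRNAs. They are placed into chromatin by their own chaperones, also outside S phase. H2A.Z and H3.3 are enriched at promoters and other regulatory DNA of embryonic stem cells. Mll2 has been a name of a methyltransferase of histone H3 lysine 4.

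Promoters are shown because 3 of the 4 genes with ratios of at least 1.5-fold and the 2 with ratios near 0 can be set side by side in their sequence. RefSeq windows were found for all members but H2ax, and that of H1f0, which has no signal values here, is not printed. The windows printed are the 250 bases before the annotated start of transcription on build GRCm38.p6: chr13:23738557-23738806 on the plus strand for H1f2, chr11:58954435-58954684 on the plus strand for H2aw, chr11:116024505-116024754 on the minus strand for H3f3b, chr1:180813606-180813855 on the minus strand for H3f3a and chr3:137864237-137864486 on the plus strand for H2az1. Capitals mark 3 motifs on either strand. CCAAT is the box bound by NF-Y. The TATA element was searched as TATAA. The H1 box, known from linker histone promoters, was searched as AAACACA.
H1f2: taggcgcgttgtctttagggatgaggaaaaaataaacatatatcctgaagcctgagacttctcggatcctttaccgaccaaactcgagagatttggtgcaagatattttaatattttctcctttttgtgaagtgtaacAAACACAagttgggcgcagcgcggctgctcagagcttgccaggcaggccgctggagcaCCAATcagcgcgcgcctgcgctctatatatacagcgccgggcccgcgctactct
H2aw: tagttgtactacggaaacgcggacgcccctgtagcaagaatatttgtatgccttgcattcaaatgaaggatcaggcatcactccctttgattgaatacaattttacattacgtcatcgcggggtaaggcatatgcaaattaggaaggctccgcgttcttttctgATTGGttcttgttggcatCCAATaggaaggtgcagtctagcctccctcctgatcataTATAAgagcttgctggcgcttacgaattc
H3f3b: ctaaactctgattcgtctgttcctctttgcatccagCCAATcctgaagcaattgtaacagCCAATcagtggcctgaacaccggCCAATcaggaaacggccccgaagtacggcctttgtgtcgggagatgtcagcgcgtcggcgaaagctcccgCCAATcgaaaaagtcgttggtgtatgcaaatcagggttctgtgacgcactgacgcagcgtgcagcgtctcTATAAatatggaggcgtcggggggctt
H3f3a: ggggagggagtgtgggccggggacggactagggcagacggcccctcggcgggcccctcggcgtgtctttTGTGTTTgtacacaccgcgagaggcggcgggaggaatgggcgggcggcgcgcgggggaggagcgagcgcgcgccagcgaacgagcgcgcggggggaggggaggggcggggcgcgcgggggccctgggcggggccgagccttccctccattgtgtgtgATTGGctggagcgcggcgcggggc
H2az1: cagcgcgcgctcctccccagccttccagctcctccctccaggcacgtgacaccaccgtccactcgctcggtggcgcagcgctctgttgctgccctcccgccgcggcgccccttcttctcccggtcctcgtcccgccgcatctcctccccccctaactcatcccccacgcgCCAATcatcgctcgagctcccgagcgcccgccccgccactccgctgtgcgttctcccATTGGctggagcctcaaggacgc

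All 5 printed windows held CCAAT on at least 1 strand, which 33.8% of the 32851 RefSeq windows of this length did. H3f3b had 4 copies, all on the strand shown, and at least 3 copies were found in 2.79% of all windows. H2aw and H2az1 each had 1 copy on each strand, H1f2 had 1 on the strand shown and H3f3a 1 on the opposite strand. TATAA stood 29 bases before the start of H2aw and 27 before that of H3f3b, and it was in 22.8% of all windows. The exact string TATAA was not in the windows of H1f2, H3f3a and H2az1. The H1f2 window has the stretch tatatata shortly before the start, which this search does not count. AAACACA was found at 112 bases before the start in H1f2, on the strand shown, and at 181 in H3f3a, on the opposite strand, against 6.25% of all windows. The GC box GGGCGG occurred 4 times in H3f3a, once in H2az1 and in no other printed window, and 32.7% of all windows held it. GC content was 44.8% in H2aw, 50.4% in H1f2 and 54.0% in H3f3b, against 77.2% in H3f3a and 71.2% in H2az1, beside a median of 52.4% over all windows. The core of the octamer element, TGCAAAT, was searched after the sequences had been read, and it was in H2aw and H3f3b once each and in 3.56% of all windows. The H1f0 window held none of the 5 motifs searched, at a GC content of 74.4%. These matches describe letters, and a relation of motifs or GC content to the ratios was not tested. No motif overlapped another that was searched, apart from the GC boxes of H3f3a among themselves.

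Signals were MAS5 values on the log2 scale, read against a floor at the median of all values, 6.02 or a linear signal of 64.7. Kmt2d and Kmt2b have both been called Mll2. Kmt2d had a signal of 335 in Mll2 shRNA cells and 736 in control cells, 2.20-fold lower (log2 ratio -1.14), whereas Kmt2b had 852 and 901 (log2 ratio -0.08, and 0.04 with spike-in scaling). The arrays had medians of 6.01 and 6.02. All 8 embryonic stem cell markers were above the floor on both arrays, among them Pou5f1 (6975 and 9467), Nanog (6864 and 4950) and Sox2 (12755 and 12125). Of 8 fibroblast markers 3 were measured, with summed signals of 520 in Mll2 shRNA cells and 449 in the control, of 6 neural progenitor markers 5 (1627 and 1437), and of 6 extraembryonic endoderm markers 4 (521 and 569). Within these lists single markers differed by more than the sums: Sox1, a neural progenitor transcription factor gene, had 286 in Mll2 shRNA cells and 114 in control cells (log2 ratio 1.33), and the collagen gene Col1a2 had 185 and 114 (0.70). Others went the other way. The neural progenitor marker Nes was at -0.29 in its brightest probe set and -0.51 in another. Col1a1 had 33.9, under the floor, in Mll2 shRNA cells and 96.5 in control cells (-0.58 or lower), and at least 0.004 in another probe set. In all, 3 measured neural progenitor markers had ratios above 0 and 2 below, and 2 fibroblast markers above and 1 below. The endoderm gene Sox17 had 97.2 and 54.6, the control value being under the floor (log2 ratio at least 0.59), and Dab2 had 221 and 331 (-0.59). The part of these markers in the results on histone genes was not tested. Thy1, Lum, Postn, Dcn, Pdgfra, Neurog1, Gata4 and Afp were under the floor on both arrays. In bulk RNA, a different share of cells and a different amount of RNA per cell cannot be told apart.

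Of the 10 member probe sets, 8 were above the floor on both arrays and 2 on neither. Of the 8, 5 were higher by 1.5-fold or more in Mll2 shRNA cells and 0 were lower by as much, against 7.18% and 5.24% of the 24071 measured probe sets. None of the 8 reached 2-fold, which 1.3% of measured probe sets did upward and 0.91% downward. By gene, with the probe set of the highest mean value for each, 4 of 6 were higher by 1.5-fold or more and 0 lower, against 7.4% and 4.68% of 11805 measured genes. None of the 6 reached 2-fold, which 1.47% of measured genes did upward and 0.983% downward. Because the genes were proposed from this contrast, nothing is read from these shares. The median log2 ratio of the 6 genes was 0.74, beside 0.03 over all measured genes.

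**Figure D1:**
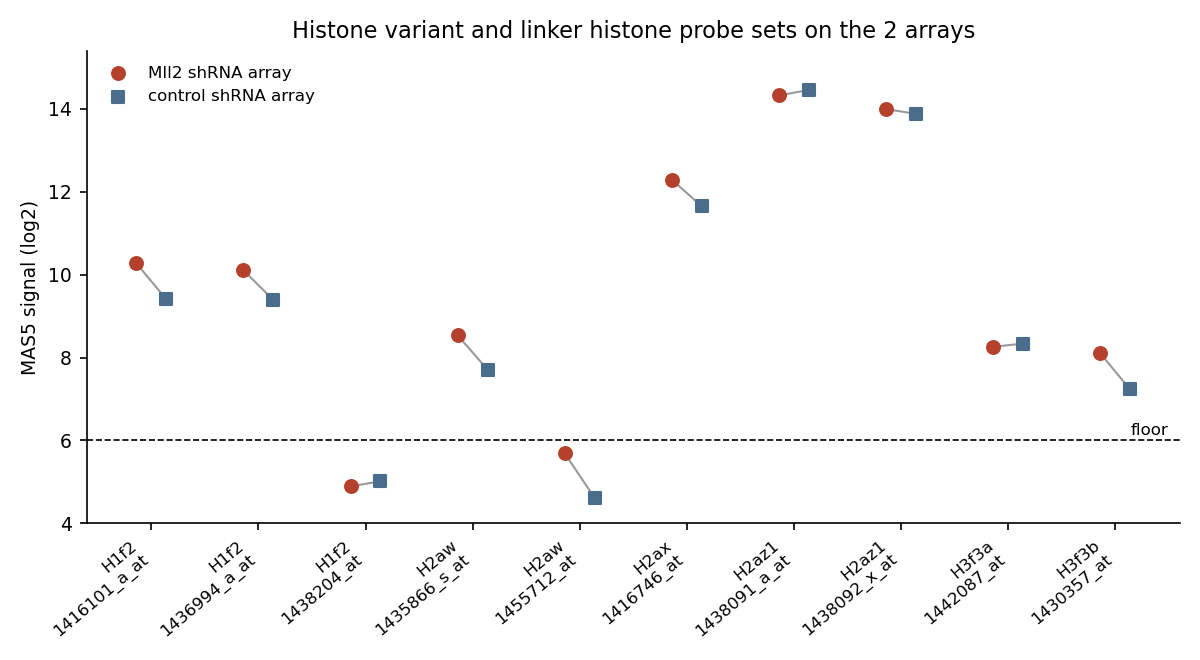
MAS5 signal on the log2 scale (y axis) for each of the 10 member probe sets (x axis), with Mll2 shRNA cells as a circle and control cells as a square, joined by a line. The dashed line is the floor of 6.02, under which 1 probe set each of H1f2 and H2aw lay on both arrays. Heights are to be compared within a probe set only.

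The linker histone gene H1f2, which encodes H1.2 (older symbol Hist1h1c), was higher in Mll2 shRNA cells in both of its measured probe sets. Probe set 1416101_a_at had a signal of 1237 in Mll2 shRNA cells, against 677 in control cells, 1.83-fold higher (log2 ratio 0.87). Probe set 1436994_a_at had 1102 in Mll2 shRNA cells, against 668 in control cells, 1.65-fold higher (log2 ratio 0.72). The gene's mean log2 ratio was 0.80 ± 0.10 (SD over 2 probe sets), beside a spread of 0.28 and 0.29 at their levels. This spread is the median absolute deviation, scaled to match a standard deviation, among the 500 probe sets closest in mean signal, and it holds real differences as well as noise. The suffix of both marks probe sets that may share transcripts of the gene, so they are not independent readings. The remaining probe set, 1438204_at, was under the floor, at 29.7 and 32.3, and gave no ratio.

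H2aw, a core H2A gene outside the large histone clusters (older symbol Hist3h2a), had 1 measured probe set annotated with it alone, 1435866_s_at. Its signal was 372 in Mll2 shRNA cells, against 209 in control cells, 1.78-fold higher (log2 ratio 0.83, spread at that level 0.34). The suffix of 1435866_s_at marks shared transcripts, so the reading may not be of H2aw only. Probe set 1435865_at, designed from the same expressed sequence but annotated with both H2aw and the ubiquitin ligase gene Trim17, had 317 in Mll2 shRNA cells and 213 in control cells (log2 ratio 0.57). The other H2aw probe set, 1455712_at, read 51.7 in Mll2 shRNA cells and 24.4 in control cells, both under the floor. With the floor at the 70th percentile, above its control value, the log2 ratio of H2aw was 0.58, just under 1.5-fold. Above the floor used, H2aw had 1 reading annotated with it alone and 1 annotated with Trim17 as well, both higher in Mll2 shRNA cells.

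H2ax encodes H2A.X, whose C-terminal serine is phosphorylated around DNA breaks. Its single probe set, 1416746_at, had a signal of 5015 in Mll2 shRNA cells, against 3206 in control cells, 1.56-fold higher (log2 ratio 0.65). The spread at that level was 0.23, and the ratio was the smallest of the 4.

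H2az1 encodes the main form of H2A.Z, a variant of nucleosomes at promoters that embryos cannot do without. Probe set 1438091_a_at had 20491 in Mll2 shRNA cells, against 22449 in control cells (log2 ratio -0.13). Probe set 1438092_x_at had 16295 in Mll2 shRNA cells, against 15067 in control cells (log2 ratio 0.11). The readings, both designed from 1 expressed sequence, went in opposite directions and averaged -0.01 ± 0.17 (SD over 2 probe sets). A pair of further probe sets is annotated with H2az1 and Gm8203, and their log2 ratios were 0.01 and -0.11. H2az2, which encodes the other form of H2A.Z, was higher in Mll2 shRNA cells: 1428029_a_at had 9546 there, against 6885 in control cells (log2 ratio 0.47), and 1436596_at had 569, against 211 (log2 ratio 1.43). The 2 readings of H2az2 were both above 0 but differed by more than the spreads of 0.19 and 0.35 at their levels.

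H3f3a and H3f3b encode the same protein, H3.3, from genes with different untranslated regions and promoters. The H3f3b probe set, 1430357_at, had 276 in Mll2 shRNA cells, against 150.1 in control cells, 1.84-fold higher (log2 ratio 0.88, spread 0.42). The H3f3a probe set, 1442087_at, had 306 in Mll2 shRNA cells, against 324 in control cells (log2 ratio -0.08, spread 0.35). The log2 ratio of H3f3b exceeded that of H3f3a by 0.96. A further 5 probe sets are annotated with both genes, with H3f3c and with 3 predicted genes, and they cannot assign signal to either gene. Their signals ran between 12424 and 21552 in Mll2 shRNA cells and between 12220 and 22084 in control cells, and their log2 ratios ran from -0.04 to 0.24, with 3 above 0 and 2 below. None of the 5 was at least 1.5-fold apart, so the H3f3b difference was seen in 1 probe set and not in those annotated with both genes. A floor at the 70th percentile lies above the control value of that H3f3b probe set, and its log2 ratio was 0.15 there.

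**Figure D2:**
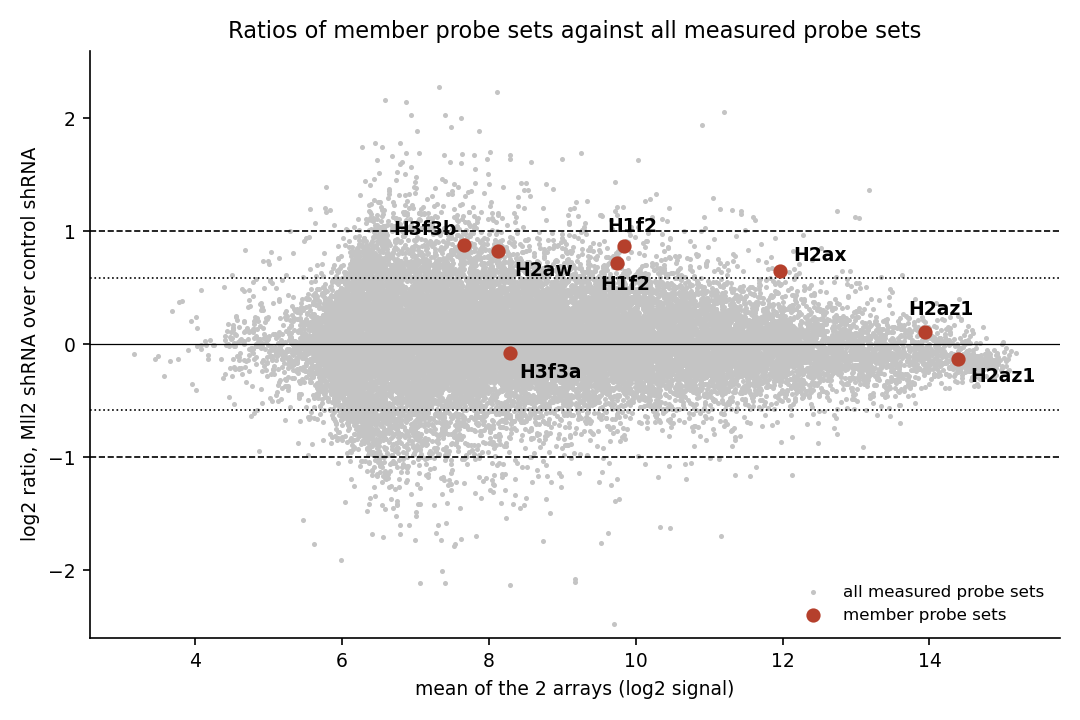
Log2 ratio of Mll2 shRNA over control shRNA (y axis) against the mean log2 signal of the arrays (x axis) for all 24071 measured probe sets (grey) and the 8 measured member probe sets (red). Dotted lines mark 1.5-fold and dashed lines 2-fold. H1f2, H2aw, H2ax and H3f3b lie between these lines on the upper side, and H2az1 and H3f3a near 0.

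Under the 10 other settings, the gene-level ratios of the 4 higher genes were above 0 wherever they had a measured probe set. There the log2 ratio ran from 0.80 to 0.99 for H1f2, from 0.58 to 0.95 for H2aw, from 0.64 to 0.76 for H2ax and from 0.15 to 0.99 for H3f3b. H2az1 ran from -0.13 to -0.01 and H3f3a from -0.15 to 0.04, with the value above 0 under scaling on the spike-in controls. That scaling moved the median of all measured genes to 0.14, against 0.03 as deposited, and relative to that median the log2 ratios were 0.85 for H1f2, 0.81 for H2aw, 0.62 for H2ax, 0.86 for H3f3b, -0.15 for H2az1 and -0.10 for H3f3a. It also moved the split of all genes past 1.5-fold, of which 79.1% were higher under it, against 61.2% as deposited. Without probe sets whose suffix marks shared transcripts, H1f2, H2aw and H2az1 had no measured probe set left, and 2 members, H2ax and H3f3b, were at least 1.5-fold higher. The share of all measured genes that were so was 7.51% in that setting.

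**Figure D3:**
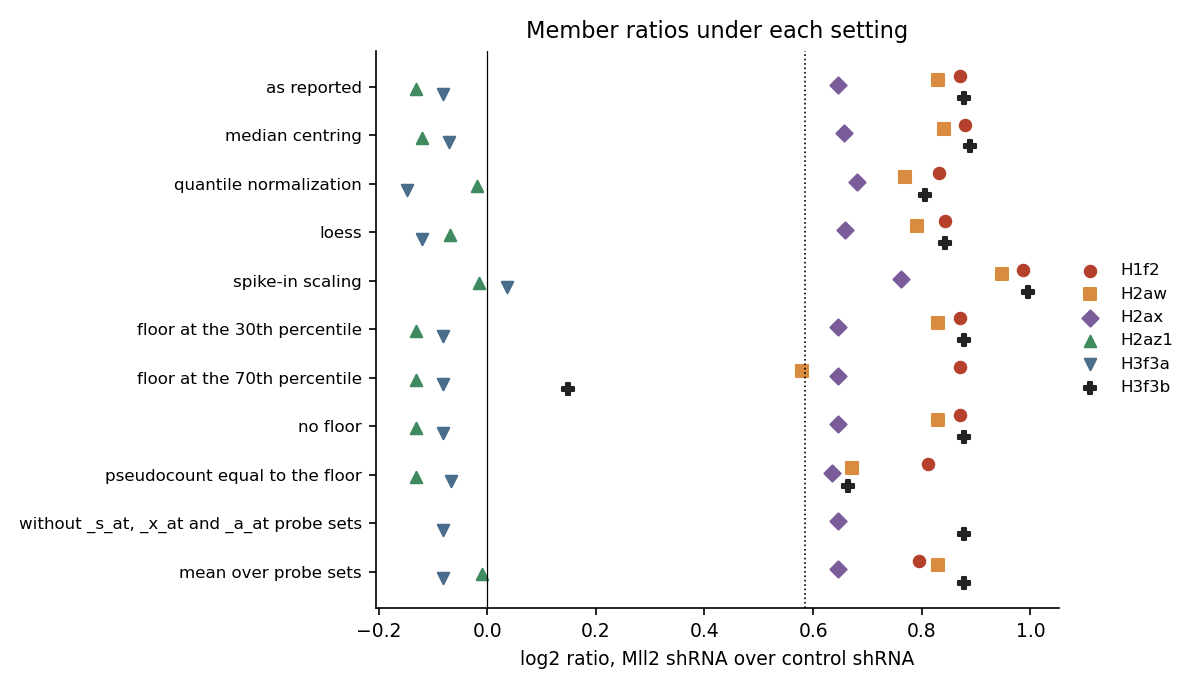
Log2 ratio of Mll2 shRNA over control shRNA (x axis) for each measured member (symbols) as reported and under each of the 10 alternative settings (rows). The dotted line marks 1.5-fold. H1f2, H2aw, H2ax and H3f3b stay above 0 in every row in which they have a value, and H3f3b drops to 0.15 with the floor at the 70th percentile.

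The other histone genes with a probe set of their own numbered 23, of which 14 were measured. By the brightest probe set 11 had ratios above 0 and 3 below, with a median of 0.26, beside 0.03 over all measured genes. By 1.5-fold or more 3 were higher and 1 lower, against 7.4% and 4.68% of all measured genes. Macroh2a3, a gene with a macroH2A symbol, had 161 in Mll2 shRNA cells, against 77.0 in control cells (log2 ratio 1.07). Macroh2a2, a macroH2A variant gene of silent chromatin, had 194, against 346 (log2 ratio -0.83), and Macroh2a1 was at -0.002. Probe set 1421612_a_at, annotated with both Macroh2a2 and Macroh2a3, had 313 in Mll2 shRNA cells, against 223 in control cells (log2 ratio 0.49). H2ac19, a replication-dependent H2A gene, was higher in both of its probe sets, at log2 ratios of 0.62 and 0.67. H3c4, a replication-dependent H3 gene, had 100.5 in Mll2 shRNA cells and 52.6, under the floor, in control cells, a log2 ratio of at least 0.63. Of the others, Cenpa, the centromeric H3 variant, was at 0.22, the linker histone gene H1f10 at 0.38, H2aj at 0.07, H2bc22 at 0.43 and H3c7 at 0.30. H2bc18 had 66.7 in Mll2 shRNA cells and 50.03, under the floor, in control cells, a log2 ratio of at least 0.04. The replication-dependent genes and H2aw could differ in the amount of mRNA or in the part of it that carries a poly(A) tail, and these arrays cannot tell the 2 apart.

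**Figure D4:**
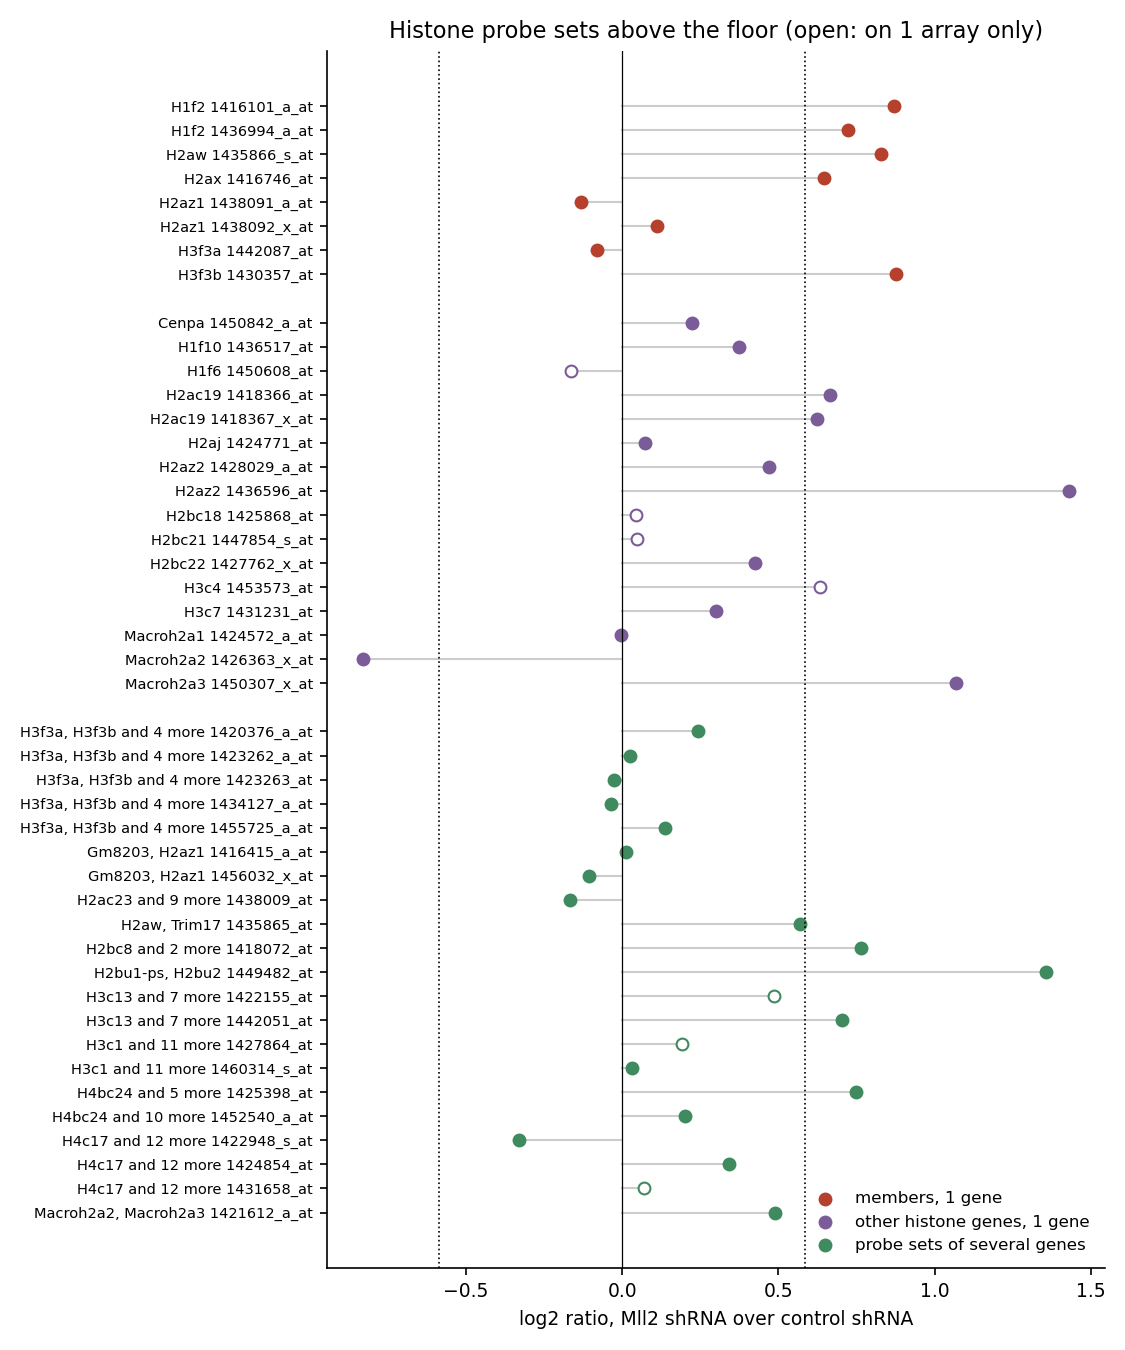
Log2 ratio of Mll2 shRNA over control shRNA (x axis) for every histone probe set above the floor (rows): members, other histone genes named alone, and probe sets annotated with several genes. Filled points were above the floor on both arrays, open points on 1, and dotted lines mark 1.5-fold; the 5 probe sets of H3f3a and H3f3b together lie between -0.04 and 0.24.

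Genes that place, process or read histones were looked at next, in lists written with earlier results of these data known. All 8 measured genes of H3.3 deposition lay within 1.5-fold in the probe set used, with a median log2 ratio of -0.07. The largest were Ubn2, a subunit of the HIRA complex, at 0.21 and Cabin1, another subunit, at -0.26, while Hira itself was at -0.12 and Daxx and Atrx, which place H3.3 in heterochromatin, were at -0.21 and -0.04. Atrx had 7 measured probe sets, from -0.70 to 0.37, and the lowest, with 61.2, under the floor, in Mll2 shRNA cells and 105 in control cells, was past 1.5-fold. The 12 genes of H2A.Z exchange had a median of -0.02 and also none past 1.5-fold, with Actr6, an actin-related subunit of the SRCAP complex, at 0.16 and the ATPase Ruvbl2 at -0.41. Srcap, the ATPase that inserts H2A.Z, was at -0.22 in one probe set and -0.77 in the other. Of 14 genes of replication-coupled assembly 12 were measured, all within 1.5-fold (median -0.13), from Rbbp7, a histone-binding subunit, at 0.06 to Ipo4, an importin of H3 and H4, at -0.37.

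All 12 genes of histone mRNA synthesis and processing were within 1.5-fold in the probe set used, with a median of -0.02. Casp8ap2, also called FLASH, which is needed for histone pre-mRNA cleavage, was the highest at 0.50 (6018 in Mll2 shRNA cells, against 4253 in control cells). Cpsf3, the endonuclease of that cleavage, was the lowest at -0.19. Slbp, the stem-loop binding protein, was at -0.13 in one probe set and 0.54 in the other, and Npat, the coactivator of replication-dependent histone genes, at 0.16. Of 17 genes that phosphorylate or read H2A.X, 16 were measured (median -0.01). Eya1 was at 0.71, and at least 0.06 in its second probe set (67.6 in Mll2 shRNA cells, against 40.3, under the floor, in control cells), and Eya3 was at -0.60, with -0.18 in its second, and both encode phosphatases of the H2A.X C-terminal tyrosine. Of the 16, 8 had ratios above 0 and 8 below. The kinase gene Atr was at 0.54 in its brightest probe set and at 0.56 and -0.09 in others. Atm was at -0.15 and Mdc1, the reader of phosphorylated H2A.X, at -0.15. Mre11a was at -0.56, with 0.02 in its second probe set, and Nbn at -0.38. Trp53bp1, which encodes 53BP1, a protein of DNA break sites, was at 0.06 in its brightest probe set. Its others were at 0.26, 0.64 and -0.39 or lower, the last being under the floor in Mll2 shRNA cells.

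Ratios of S-phase genes lay mostly below 0. Of 16, 14 had ratios below 0 and 2 above, with a median of -0.14, none was higher by 1.5-fold or more and 1 was lower by that much. That gene was Tyms, the thymidylate synthase, at -0.86, from signals of 67.7 and 123 near the floor, and its second probe set gave at least 0.59. In probe sets other than the brightest, Mcm3, a helicase subunit, was at -0.76, against -0.16 in its brightest. Cdc45, a helicase cofactor, was at -1.13 or lower, its signal being under the floor in Mll2 shRNA cells, against -0.16 in its brightest. In the other direction, the helicase subunit gene Mcm4 was at 0.40 (10861 in Mll2 shRNA cells, against 8212 in control cells), against -0.31 in its brightest. Mcm6, a further subunit, was at 0.20, against -0.11 in its brightest. Ccne2, cyclin E2, was the highest at 0.15. Pcna, the sliding clamp of replication, had 16626 in Mll2 shRNA cells, against 21690 in control cells (log2 ratio -0.38), and Mcm2, a helicase subunit, was at -0.42. With spike-in scaling the median was -0.02 for S-phase genes, and it was above 0 for the lists of H3.3 deposition (0.05), H2A.Z exchange (0.10), histone mRNA synthesis and processing (0.10) and H2A.X phosphorylation and reading (0.10). That scaling adds the same amount to every ratio whose values are above the floor on both arrays. Ratios with 1 value under the floor can shift by another amount. Relative to the median of all genes these medians were -0.16, -0.09, -0.04, -0.04 and -0.03, against -0.17, -0.09, -0.05, -0.05 and -0.04 as deposited. The S-phase median was below 0 under all 10 other settings, from -0.26 to -0.02. Whether the share of cells in S phase differed between the cultures was not tested.

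**Figure D5:**
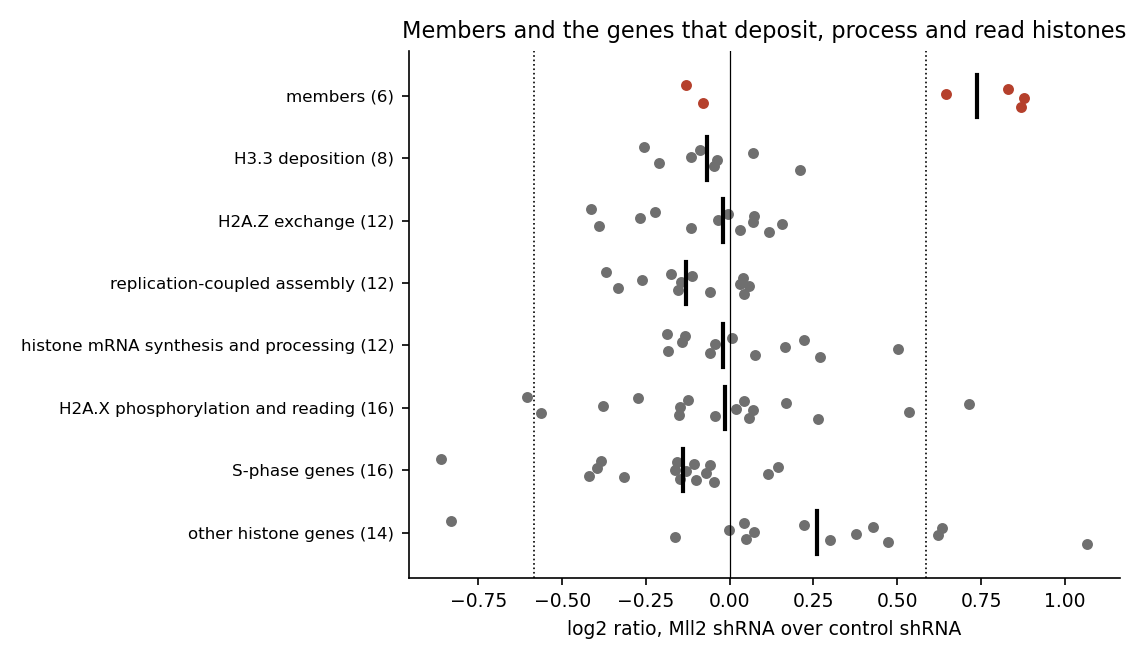
Log2 ratio of Mll2 shRNA over control shRNA (x axis) of each measured gene, 1 point a gene, for the members and 7 lists (rows, number of measured genes in brackets), with the median as a bar and dotted lines at 1.5-fold. The 6 members have a median of 0.74 and the 16 S-phase genes one of -0.14.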

How the data were processed

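Per the submitters' processing notes, the authors made the deposited log2 values with MAS5, which sets perfect-match against mismatch probes. Its version is not given in the sources used here. Back on the linear scale, each array's 2% trimmed mean was 500.0. The values were used as deposited, without the 64 control probe sets, for 1 array per group, so no test was possible, and this number limits the precision. The platform annotation names 1 gene for 34945 probe sets, several for 932 and none for 9160. For 34741 probe sets of 1 gene the symbol was taken from RefSeq (GRCm38.p6) through Entrez numbers, whether or not it changed. Values under the floor, the 50th percentile, were raised to it, and a probe set above it on at least 1 array was measured. A gene stands for its measured probe set with the highest mean. The thresholds were 1.5-fold and 2-fold.

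The members and lists were chosen with earlier results of these data known. Named are all members, Kmt2d and Kmt2b, in each pathway list up to 4 genes past 1.5-fold per direction or else the largest each way, and up to 12 other histone genes by level. H2az2's second probe set and Hira, Daxx, Atrx, Srcap, Slbp, Npat, Atr, Atm, Mdc1, Mre11a, Nbn, Trp53bp1, Pcna, Mcm2, Mcm3, Mcm4, Mcm6, Cdc45 and the cell type markers with values were named after their values were seen. Alternatives were median centring, quantile normalization, loess, spike-in scaling, a floor at the 30th or the 70th percentile or none, adding the floor as a pseudocount, averaging a gene's probe sets, and dropping those with the suffix _s_at, _x_at or _a_at. The steps were tested on simulated data. Python 3.11.15, numpy 2.4.6, pandas 2.3.3, R 4.3.3 and limma 3.58.1 were used.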

Additional observations from a re-analysis of the deposited data

Results flagged for a closer look

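Probe sets annotated with several histone genes were left out of the comparisons, since their signal cannot be given to 1 gene. Of 28 such probe sets 21 were measured, 16 with log2 ratios above 0 and 5 below, with a median of 0.19. They drew attention where the signal in Mll2 shRNA cells was at least 1.5-fold that in control cells. This held for 4, against 7.18% of all measured probe sets. The highest was 1449482_at, annotated with the H2B genes H2bu1-ps and H2bu2, with a signal of 346 in Mll2 shRNA cells and 135 in control cells (log2 ratio 1.36). Probe set 1418072_at, of H2bc8, H2bc6 and H2bc4, had 1240 in Mll2 shRNA cells and 730 in control cells (0.76), but another probe set of a wider group of H2B genes, 1452540_a_at, was at 0.20. Probe set 1425398_at, of H4bc24 and 5 H2B genes, had 111 and 66.4 (0.75), the control value being near the floor of 64.7. Probe set 1442051_at, of 8 H3 genes, had 146 and 89.5 (0.70), while 1460314_s_at, of 12 H3 genes, was at 0.03. None of the 21 was at least 1.5-fold lower, against 5.24% of all measured probe sets. The lowest was 1422948_s_at, of 13 H4 genes, with 625 in Mll2 shRNA cells and 785 in control cells (-0.33). Probe set 1438009_at, of 10 H2A genes, had 19585 in Mll2 shRNA cells and 21992 in control cells (-0.17).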

How the results depend on the processing

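By gene, all 10 alternatives kept H1f2, H2aw, H2ax and H3f3b above 0 wherever they had a measured probe set, and no called value changed direction. A changed floor or a pseudocount cannot reverse the sign of a probe set's ratio. The H1f2 probe set 1438204_at, under the floor as reported, was at -0.12 with the floor at the 30th percentile or no floor. It was at -0.04 with the pseudocount. With the floor at the 70th percentile, 3 member probe sets and 2 members were at least 1.5-fold higher, the members' median log2 ratio was 0.36, that of H3f3b exceeded that of H3f3a by 0.23, and 0 of the other histone genes were past 1.5-fold in either direction. Of all measured genes, 4.35% were at least 1.5-fold higher with that floor and 2.52% lower by as much. That floor lies above the control values of H3f3b and of H2aw, whose log2 ratio was then 0.58, just under 1.5-fold. Without the suffixed probe sets, 2 member probe sets and 2 members were at least 1.5-fold higher, fewer probe sets being left, and 0 other histone genes were lower. Of all genes measured without them, 7.51% were at least 1.5-fold higher. With the floor at the 30th percentile or no floor, 1 member probe set, of H2aw, was past 2-fold, and 3 and 6 other histone genes were lower. With the pseudocount, 1 other histone gene was higher. Over the 6 pathway lists together, 1 gene was past 1.5-fold upward and 2 downward as reported. The upward count was 3 with spike-in scaling, 2 with no floor, and 0 with the floor at the 70th percentile, the pseudocount or the mean over probe sets. The downward count was 0 with the pseudocount and 1 with spike-in scaling, the floor at the 70th percentile, the mean over probe sets or no suffixed probe sets. Where no construction is named, the cause was not tested. No paired analysis was possible because each group has 1 array, and no array could be left out.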
